A study of Homo sapiens with 10 samples.

Results

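The genes described here encode epithelial innate defence proteins, which a mucosal epithelium sets against microbes at its surface, and a pair of complement components. They are LYZ, LCN2, PIGR, SLPI, DMBT1, REG4, REG1A, DEFB1, C3 and CFB, 10 of the 19775 genes with a probe set that the platform annotation pairs with a single symbol. The 10 genes have 15 such probe sets. Each gene is represented by the probe set chosen by its mean log2 signal over all 10 arrays, the highest one of the gene, so the levels are given as a description and the difference between groups did not enter that choice. For LYZ the chosen probe set and the next one averaged 10.55 and 10.27 on the log2 scale, for REG4 14.60 and 14.50, for PIGR 7.39 and 5.66, and for CFB 4.71 and 4.05. Genes were tested where the mean signal reached 76.2, the median over all probe sets other than controls (6.25 on the log2 scale). LYZ, LCN2, PIGR, SLPI, DMBT1 and REG4 passed this filter, 6 of the 10 genes, among 12344 tested genes in all. REG1A, DEFB1, C3 and CFB lay under it, which leaves both complement components with little signal in these cells.

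Gene expression was measured in LoVo cells, an established human cell line from a colorectal adenocarcinoma, on Affymetrix HG-U133 Plus 2.0 arrays. The ADMA group (4 arrays) was kept for 96 h in DMEM without serum, with 10 μM asymmetric dimethylarginine (ADMA), an endogenous inhibitor of nitric oxide synthesis derived from arginine. The SS group (3 arrays) was serum-starved for 96 h in DMEM without serum or ADMA, and the C group (3 arrays) grew in DMEM with 10% fetal bovine serum. The labels call the arrays of a group biological replicates. ADMA against SS compares cells with and without the agent in serum-free medium, SS against C compares cells without and with serum, and ADMA against C differs in both; ADMA in full medium was not analysed here. All 3 groups are cultures of 1 line, measured at 1 dose and 1 time.

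Defence proteins of this kind act outside the cell that makes them. Lysozyme cuts the peptidoglycan of bacterial walls, lipocalin 2 takes up bacterial siderophores and so withholds iron, secretory leukocyte protease inhibitor blocks neutrophil elastase, and the polymeric immunoglobulin receptor carries IgA to the lumen. DMBT1 is a scavenger receptor-like glycoprotein that binds bacteria, REG4 and REG1A are small secreted C-type lectins, and DEFB1 is a beta-defensin. C3 is the central component of complement, and factor B, the product of CFB, is the protease of its alternative pathway. In the intestine lysozyme is best known from Paneth cells and REG4 from endocrine and deep crypt secretory cells, and LCN2 is a known target of NF-kB and of its nuclear cofactor, the product of NFKBIZ.

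The promoters of LCN2 and REG4 are shown because these genes moved in opposite directions when ADMA was set against SS, and because the table of reference promoters used here holds both. Each is the 250 bases before the start site in RefSeq, on the gene's own strand of GRCh38.p14. The promoter of LCN2 lies at chr9:128149203-128149452 on the plus strand and that of REG4 at chr1:119811461-119811710 on the minus strand. Capitals mark matches to 5 searched motifs: the NF-kB consensus, the C/EBP core TTGCNNAA, the AP-1 site TGACTCA and the STAT site TTCNNNGAA, each on both strands, and the TATA box TATAAA on the gene's strand. None of the matches overlap each other.
LCN2 promoter: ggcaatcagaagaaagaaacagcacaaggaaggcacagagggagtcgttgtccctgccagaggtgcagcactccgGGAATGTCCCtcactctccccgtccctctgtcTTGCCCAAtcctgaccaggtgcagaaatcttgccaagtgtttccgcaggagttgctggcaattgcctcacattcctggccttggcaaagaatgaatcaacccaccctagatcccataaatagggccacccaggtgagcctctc
REG4 promoter: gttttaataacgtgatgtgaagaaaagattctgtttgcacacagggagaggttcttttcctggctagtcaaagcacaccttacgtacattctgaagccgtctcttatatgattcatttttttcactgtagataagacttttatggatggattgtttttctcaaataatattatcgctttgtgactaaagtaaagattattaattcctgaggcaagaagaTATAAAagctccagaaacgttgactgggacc
LCN2 held an NF-kB consensus whose first base is at position -175 from the start site, and a C/EBP core at -143. The REG4 promoter held a TATA box at -31 and none of the other 4 motifs. Of 35114 promoters of the same length, 5.21% held the NF-kB consensus, 9.05% the C/EBP core, 6.8% the TATA box, 4.2% the AP-1 site and 6.57% the STAT site. A match describes the letters and not a bound site. Promoters were matched for 6 of the 10 genes; among the other 4 of these, PIGR held no match, DMBT1 a TATA box at -29 and a C/EBP core at -197, REG1A a TATA box at -28 and C/EBP cores at -195 and -64, and CFB a TATA box at -30 and a STAT site at -92.

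The authors scaled the deposited signals to a common 2% trimmed mean, 500.1 on every array. The median signal still differed, at 91.8 to 98.1 on ADMA arrays, 87.4 to 90.6 on SS arrays and 60.6 to 73.1 on C arrays. The 5' control probe set for the large ribosomal RNA read 795.4 to 1052 on ADMA arrays, 1345 to 2014 on SS arrays and 501.4 to 633.6 on C arrays, and the 3'/5' ratio of ACTB was 1.02 to 1.05, 1.13 to 1.23 and 1.01 to 1.08 in the same order; their part in the results was not tested. All 9 markers of colon epithelium were above the background level on every array, where the background level of an array is the 95th percentile of its 27 Bacillus control probe sets. Of 9 leukocyte markers with a probe set 2 were tested and neither was called (0 of 2 also by an unadjusted p under 0.05 in limma), and their summed signal was 412.8 to 527.5 on ADMA arrays, 420.3 to 507.6 on SS arrays and 321.1 to 567.7 on C arrays. PTPRC, CD14 and TYROBP were above background on 0 arrays, and ITGAM was above it on all 10. MS4A1 was above background on 4 of 4 ADMA, 3 of 3 SS and 2 of 3 C arrays, and CD3E on 2 of 4, 3 of 3 and 2 of 3 in that order. LST1 was above it on the 3 C arrays alone, AIF1 on 2 SS arrays alone, and HLA-DRA on 1 array of each group.

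A gene is said to have risen or fallen where its adjusted p in limma was under 0.01 and its fold at least 1.2. In SS against C, LYZ and LCN2 rose and SLPI fell, 2 and 1 of the 6 tested genes, where 30.3% of all tested genes rose and 27.3% fell. In ADMA against SS, SLPI and REG4 rose and LYZ and LCN2 fell, 2 genes each way, where 15.7% of all tested genes rose and 13.8% fell. In ADMA against C, LYZ, LCN2, SLPI and REG4 rose, 4 of the 6, and 0 fell, where 26.6% of all tested genes rose and 23.2% fell; by an unadjusted p under 0.05, 0 of the 6 fell as well. With so many genes changed in all 3 comparisons, these counts are not read as a property of the group. Each pair of comparisons shares the arrays of a group, so the values are set side by side.

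**Figure D1:**
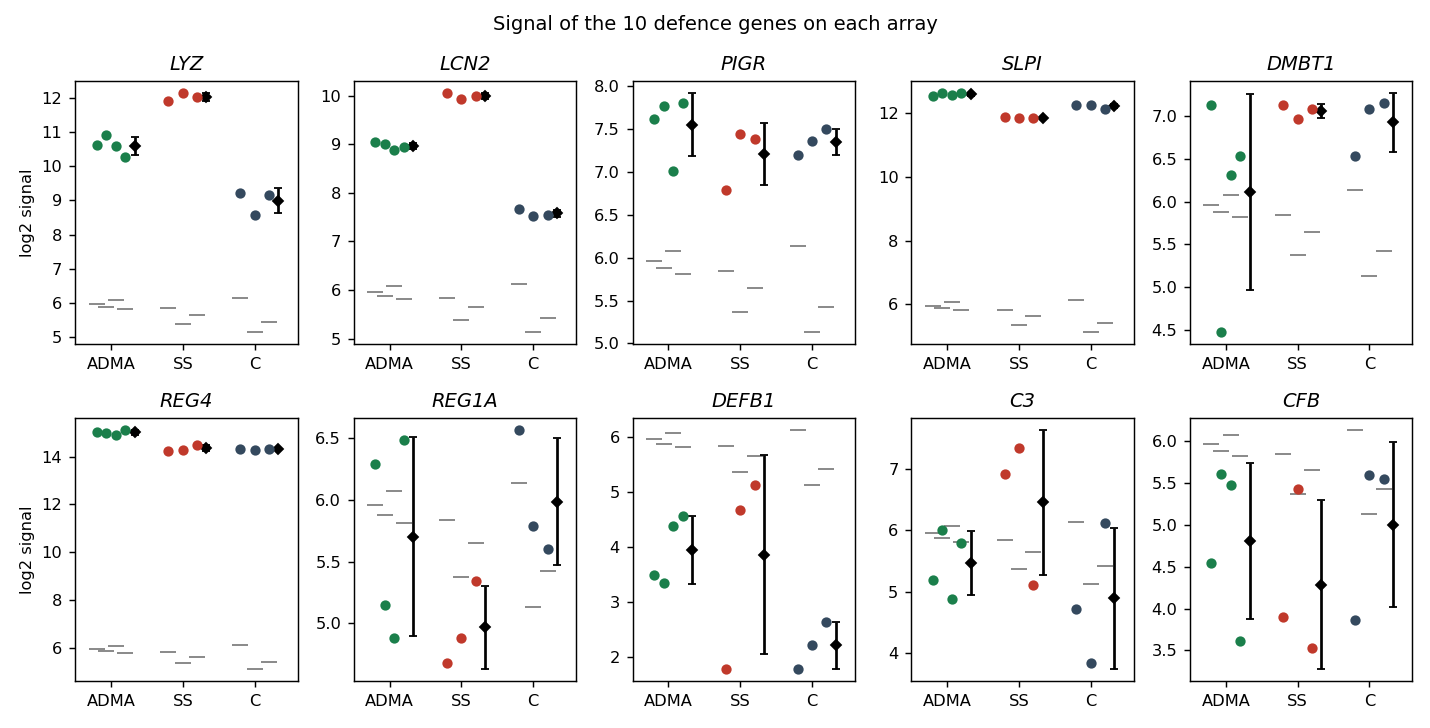
Log2 signal (vertical axis) of the chosen probe set of each of the 10 genes on the ADMA, SS and C arrays, 1 point per array, with the group mean and SD as a black diamond and bar and the background level of each array as a grey dash. LYZ and LCN2 are highest on all 3 SS arrays and lowest on all 3 C arrays, while DEFB1 lies under the background level on every array.

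Lysozyme, the product of LYZ, showed the widest difference between SS and C among the 6 tested genes. LYZ had signals of 1594, 1923, 1550 and 1244 on the ADMA arrays, 3845, 4534 and 4237 on the SS arrays, and 601.7, 379.2 and 575.6 on the C arrays. The 3 groups did not overlap. The mean log2 signal was 10.61 ± 0.26 in ADMA cells (SD, n = 4), 12.03 ± 0.12 in SS cells (SD, n = 3) and 8.99 ± 0.37 in C cells (SD, n = 3). LYZ was thus 8.25-fold higher in SS than in C, a log2 difference of 3.05 (SE 0.16, limma adjusted p = 6.41e-10), and 69 of the 12344 tested genes rose further. ADMA cells stood between, apart from both. LYZ fell by 1.43 on the log2 scale in ADMA against SS (SE 0.15, limma adjusted p = 5.2e-06), with 31 tested genes lower still. In ADMA against C it remained 3.07-fold higher, a log2 difference of 1.62 (SE 0.15, limma adjusted p = 3.99e-07).

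The other probe set of LYZ, 1555745_a_at, ran the same way. It gave 1583, 1684, 1423 and 1221 on the ADMA arrays, 2773, 3211 and 3511 on the SS arrays, and 379.1, 389.3 and 376.8 on the C arrays, again with no overlap. Its log2 difference was 3.05 in SS against C (SE 0.11), -1.10 in ADMA against SS (SE 0.11) and 1.94 in ADMA against C (SE 0.11), with limma adjusted p of 3.38e-11, 3.06e-06 and 2.34e-09 in the fit over probe sets. The 3 C arrays, which spread over 0.37 (SD) with the chosen probe set 213975_s_at, spread over 0.03 with this one.

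LYZ is also a marker of myeloid and of Paneth cells, so those markers are given beside it. Of the leukocyte markers given above, the myeloid marker ITGAM averaged 7.04 ± 0.28 in ADMA cells (SD, n = 4), 6.61 ± 0.62 in SS cells (SD, n = 3) and 6.82 ± 0.61 in C cells (SD, n = 3), while CD14 and TYROBP lay under background on every array. Among 5 Paneth cell markers with a probe set, PLA2G2A and MMP7 were tested, and they went opposite ways. PLA2G2A, a secreted phospholipase that kills bacteria, averaged 11.34 ± 0.33 in ADMA cells (SD, n = 4), 10.07 ± 0.14 in SS cells (SD, n = 3) and 12.53 ± 0.10 in C cells (SD, n = 3), so it was lowest where LYZ was highest. MMP7, a protease that processes defensins in mouse Paneth cells, had the same order of groups as LYZ, with 6.79 ± 0.48 in ADMA cells (SD, n = 4), 7.44 ± 0.10 in SS cells (SD, n = 3) and 6.28 ± 0.13 in C cells (SD, n = 3). It rose by a log2 difference of 1.16 in SS against C (SE 0.28, limma adjusted p = 0.00204), a call lost with quantile normalization (adjusted p = 0.0304) and with centred arrays (0.0277), and gave -0.65 in ADMA against SS (SE 0.26, limma adjusted p = 0.0595). The Paneth defensin DEFA6 was above background on 0 arrays, DEFA5 on 1 and the lectin gene REG3A on 2. The part of other cell types in the LYZ signal was not tested.

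LCN2 followed the same order of groups with a narrower spread. Its signals were 527.9, 512, 474.1 and 493.6 on the ADMA arrays, 1065, 984.9 and 1027 on the SS arrays, and 201.6, 184.3 and 186.8 on the C arrays. No array of a group reached into another group. On the log2 scale LCN2 averaged 8.97 ± 0.07 in ADMA cells (SD, n = 4), 10.00 ± 0.06 in SS cells (SD, n = 3) and 7.58 ± 0.07 in C cells (SD, n = 3). The difference was 2.43 in SS against C (SE 0.10, limma adjusted p = 4.31e-11), a 5.38-fold rise that 150 tested genes exceeded. ADMA against SS gave -1.03 (SE 0.09, limma adjusted p = 9.95e-07) and ADMA against C gave 1.39 (SE 0.09, limma adjusted p = 1.15e-08).

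SLPI, whose product inhibits serine proteases of neutrophils, ran the other way from LYZ and LCN2 in the 2 comparisons with SS. It had signals of 5925, 6316, 6067 and 6245 on the ADMA arrays, 3721, 3631 and 3671 on the SS arrays, and 4837, 4825 and 4492 on the C arrays. The SS arrays were lowest and the ADMA arrays highest, without overlap. Mean log2 signals were 12.58 ± 0.04 in ADMA cells (SD, n = 4), 11.84 ± 0.02 in SS cells (SD, n = 3) and 12.20 ± 0.06 in C cells (SD, n = 3). SLPI rose 1.67-fold in ADMA against SS, a log2 difference of 0.74 (SE 0.05, limma adjusted p = 8.02e-08), and fell by 0.36 in SS against C (SE 0.05, limma adjusted p = 3.3e-05). In ADMA against C the difference was 0.38 as deposited (SE 0.05, limma adjusted p = 1.28e-05), but -0.13 (adjusted p = 0.233) with every array centred on its median, so neither this call nor its sign was kept.

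REG4, a lectin, was among the brightest signals of the arrays and rose with ADMA. Its signals were 33760, 32000, 30550 and 35510 on the ADMA arrays, 19440, 20090 and 23160 on the SS arrays, and 20200, 20080 and 20670 on the C arrays, where the highest signal of any probe set was 39625 to 46513, 29150 to 35874 and 29581 to 33658 in the same order of groups. The 4 ADMA arrays lay above all others, and the SS and C arrays overlapped. Log2 means were 15.01 ± 0.09 in ADMA cells (SD, n = 4), 14.35 ± 0.13 in SS cells (SD, n = 3) and 14.31 ± 0.02 in C cells (SD, n = 3). REG4 was 1.58-fold higher in ADMA than in SS, a log2 difference of 0.66 (SE 0.07, limma adjusted p = 2.59e-06). Quantile normalization lowered this value to 0.32 and kept the call (adjusted p = 6.52e-06), and the other comparisons of REG4 depended on the scaling too. SS against C gave 0.04 (SE 0.07, limma adjusted p = 0.663) as deposited and -0.35 (adjusted p = 0.00147) with centred arrays. ADMA against C gave 0.70 (SE 0.07, limma adjusted p = 3.86e-07) as deposited and 0.19 (adjusted p = 0.0518) with centred arrays, which ended the call.

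The 3 probe sets of REG4 agreed in direction with ADMA and not in size. Probe set 223447_at, as bright as the chosen 1554436_a_at, gave 31910, 27960, 27190 and 32160 on the ADMA arrays, 20980, 19620 and 20490 on the SS arrays, and 21120, 17600 and 18620 on the C arrays, and its log2 difference in ADMA against SS was 0.55 (SE 0.07, limma adjusted p = 5.78e-05). The dimmer 238984_at gave 6384, 6116, 6780 and 7115 on the ADMA arrays, 1534, 2064 and 2013 on the SS arrays, and 1085, 1239 and 1198 on the C arrays. With this probe set all 3 groups were apart. It was 3.55-fold higher in ADMA than in SS, a log2 difference of 1.83 (SE 0.10, limma adjusted p = 1.91e-08), and 5.62-fold higher in ADMA than in C, 2.49 (SE 0.10, limma adjusted p = 7.88e-11). It also rose in SS against C, by a log2 difference of 0.66 (SE 0.10, limma adjusted p = 5.4e-05), where the bright probe sets gave 0.04 and 0.09. The gap from 238984_at to 1554436_a_at was -2.32 on the log2 scale in ADMA cells (-2.40 to -2.17 on single arrays), -3.49 in SS cells (-3.66 to -3.28) and -4.12 in C cells (-4.22 to -4.02). The size of the REG4 response therefore depended on the probe set, and why the gap differed between groups was not tested.

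**Figure D2:**
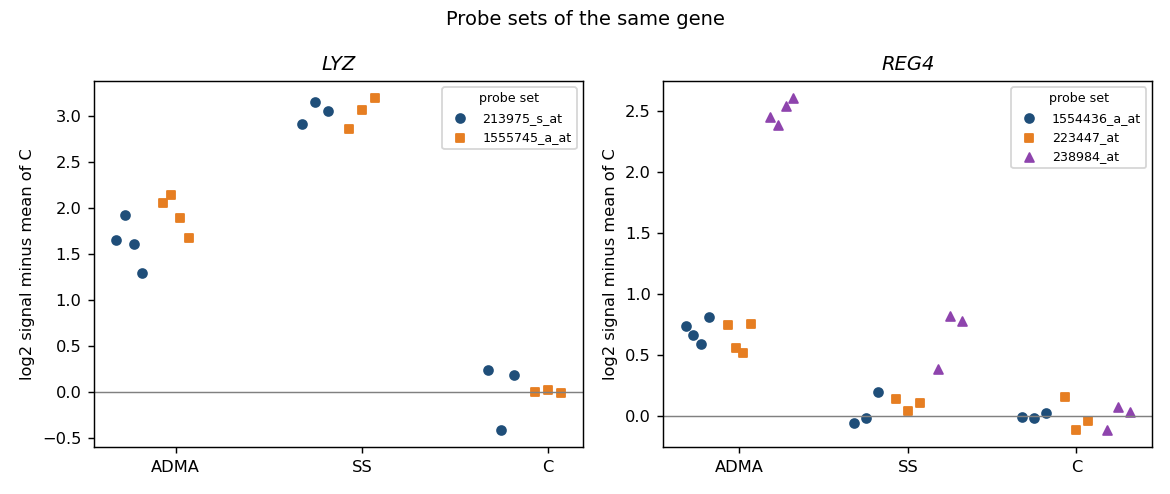
Log2 signal of each probe set of LYZ (left) and REG4 (right) minus its own mean over the C arrays (vertical axis), 1 point per ADMA, SS or C array. Both LYZ probe sets move alike, while REG4 probe set 238984_at stands well above the 2 brighter ones on all 4 ADMA arrays.

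PIGR and DMBT1 were measured near the low end of the tested range and neither was called in any comparison. PIGR gave 196.6, 218.2, 128.9 and 225.2 on the ADMA arrays, 111, 173.7 and 167.3 on the SS arrays, and 147.2, 164 and 181.6 on the C arrays, with all 3 groups overlapping. Its log2 difference was 0.35 in ADMA against SS (SE 0.23, limma adjusted p = 0.25), -0.15 in SS against C (SE 0.25, limma adjusted p = 0.615) and 0.20 in ADMA against C (SE 0.23, limma adjusted p = 0.475). A second probe set, 226147_s_at, lay under the filter, at 21.35 to 98.3 on ADMA arrays, 44.66 to 67.45 on SS arrays and 36.49 to 84.9 on C arrays.

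DMBT1 had 139.9, 22.13, 79.32 and 92.2 on the ADMA arrays, 139.8, 125.2 and 135.9 on the SS arrays, and 92.5, 136.4 and 142.9 on the C arrays. ADMA replicate 2 was under the background level of its array and set most of the spread, 6.11 ± 1.15 in ADMA cells (SD, n = 4) against 7.06 ± 0.08 in SS cells (SD, n = 3) and 6.93 ± 0.34 in C cells (SD, n = 3). ADMA against SS gave -0.95 (SE 0.47, limma adjusted p = 0.118), and -0.41 (adjusted p = 0.269) without ADMA replicate 2. SS against C gave 0.13 (SE 0.50, limma adjusted p = 0.827). In ADMA against C the value was -0.82 (SE 0.47, limma adjusted p = 0.144), -0.27 without ADMA replicate 2, and -1.33 (adjusted p = 0.0079) with centred arrays, the one setting under which DMBT1 was called.

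**Figure D3:**
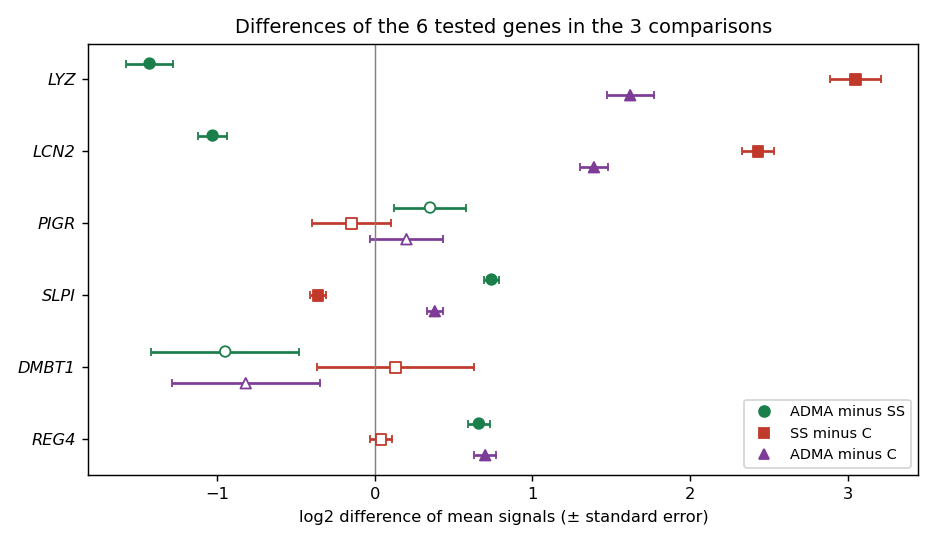
Log2 difference of group means (horizontal axis, bars ± SE from limma) of the 6 tested genes in ADMA minus SS (circles), SS minus C (squares) and ADMA minus C (triangles), with filled symbols where the gene was called. LYZ and LCN2 lie left of 0 for ADMA minus SS and right of it for SS minus C, and SLPI lies on the opposite sides.

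The 4 remaining genes gave signals at or near background, and levels this low limit what their values can show. REG1A had 78.44, 35.45, 29.37 and 90.13 on the ADMA arrays, 25.62, 29.38 and 40.47 on the SS arrays, and 94.98, 55.15 and 48.55 on the C arrays. It was above background on 2 of 4 ADMA arrays, 0 of 3 SS arrays and 3 of 3 C arrays. With each SS array taken at its background level, the mean of REG1A was at least 1.29-fold lower in SS than in C. That bound holds for the means alone, as C signals of 55.15 and 48.55 lay under the SS replicate 1 level of 57.3. In the limma fit over all 19775 genes REG1A was not called in SS against C (log2 difference -1.02, SE 0.52, adjusted p = 0.14). DEFB1 read 11.21, 10.22, 21.01 and 23.77 on the ADMA arrays, 3.441, 25.48 and 34.93 on the SS arrays, and 3.442, 4.64 and 6.233 on the C arrays, none of them above background, so no fold is given.

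The complement genes were also under the filter, although C3 reached higher signals on 2 SS arrays than REG1A or DEFB1 on any array. C3 had 36.45, 63.78, 29.59 and 55.84 on the ADMA arrays, 120.3, 162.4 and 34.42 on the SS arrays, and 26.46, 14.32 and 69.55 on the C arrays. The signal was above background on 1 of 4 ADMA arrays, 2 of 3 SS arrays and 1 of 3 C arrays, and SS replicate 3 lay far under the other SS arrays. CFB gave 23.22, 48.97, 44.18 and 12.25 on the ADMA arrays, 14.95, 43.17 and 11.54 on the SS arrays, and 14.52, 48.24 and 46.78 on the C arrays, above background on 0 of 4, 1 of 3 and 2 of 3 arrays in the same order, and its other probe set stayed between 5.505 and 52.42 on all 10 arrays. Fitted with limma over all 19775 genes without the filter, none of the 4 genes was called in any comparison. The lowest adjusted p was that of C3 in SS against C, 0.0751 (log2 difference 1.56, SE 0.66, unadjusted p = 0.0342), and the lowest of DEFB1 was 0.0929 in ADMA against C (unadjusted p = 0.0412); no other unadjusted p of these 4 genes was under 0.05. In whole-culture RNA, fewer cells that make a transcript and less of it per cell cannot be told apart.

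Other complement genes were measured from lists of 26 components and 20 regulators and receptors. Of the 24 components with a probe set, 4 were tested. C1RL, a protease related to C1r, rose by a log2 difference of 1.70 in SS against C (SE 0.16) and 1.55 in ADMA against C (SE 0.15). C1R, a protease of the classical pathway, fell by 0.99 in SS against C (SE 0.20). MASP2, a protease of the lectin pathway, was under background on all 3 C arrays and above it on 3 of 4 ADMA arrays. It was at least 3.29-fold higher in SS and at least 2.63-fold higher in ADMA than in C. With signals under background set to it, the limma adjusted p was 0.000548 in SS against C and 0.00146 in ADMA against C. As deposited, MASP2 gave log2 differences of 2.7 (SE 0.41, limma adjusted p = 3.37e-05) and 2.38 (SE 0.38, limma adjusted p = 7.55e-05). These rest on C signals under background. Its mean log2 signal was 4.58 in C cells, 6.96 in ADMA cells and 7.28 in SS cells. MASP2 thus passed the filter of 6.25 only through the serum-free groups, where it was high, which limits its tests. CFD, which encodes factor D, the protease that cuts factor B, fell by 0.46 in SS against C (SE 0.12) and rose by 0.53 in ADMA against SS (SE 0.11). The CFD calls were lost without SS replicate 1 or 2 or C replicate 1 or 2 in SS against C (-0.46 to -0.35), and without SS replicate 2 in ADMA against SS (0.42). The components split 2 higher and 2 lower in SS against C, 1 and 0 in ADMA against SS (2 and 0 by an unadjusted p under 0.05 in limma), and 2 and 0 in ADMA against C (2 and 1). With centred arrays they were 2 and 2, 0 and 0, and 2 and 2 in the same order. As deposited, 30.3% of all tested genes rose and 27.3% fell in SS against C, 15.7% and 13.8% in ADMA against SS, and 26.6% and 23.2% in ADMA against C.

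Several genes that restrain complement rose in both serum-free groups over C. Of 16 regulators and receptors with a probe set 8 were tested, and C4BPB, CD46, CD55 and CD59 rose in SS against C, 4 of 8 with 0 lower (also 4 and 0 by an unadjusted p under 0.05 in limma), where 30.3% of all tested genes rose, at a median log2 difference of 0.86 against 0.07 over all tested genes. CD55, the decay-accelerating factor, averaged 13.44 ± 0.10 in ADMA cells (SD, n = 4), 13.81 ± 0.01 in SS cells (SD, n = 3) and 12.06 ± 0.05 in C cells (SD, n = 3), a difference of 1.75 in SS against C (SE 0.06). C4BPB, the beta chain of the C4b-binding protein, rose by 2.21 (SE 0.10), and CD46, a cofactor for the breakdown of C3b, by 0.91 (SE 0.05); CD59 blocks the terminal complex and rose by 0.80 (SE 0.06). In ADMA against C these 4 genes and CLU rose, 5 of 8 with 0 lower (5 and 0 unadjusted), where 26.6% of all tested genes rose, at a median of 0.98 against 0.07. CLU, which encodes clusterin, an inhibitor of the terminal complex, rose with ADMA: 11.21 ± 0.15 in ADMA cells (SD, n = 4), 9.32 ± 0.18 in SS cells (SD, n = 3) and 9.37 ± 0.26 in C cells (SD, n = 3), a difference of 1.88 in ADMA against SS (SE 0.12, limma adjusted p = 4.45e-08). In the same comparison CD55 fell by 0.37 (SE 0.06) and C4BPB by 0.36 (SE 0.09), a call that C4BPB lost without ADMA replicate 3 or 4 or any single SS replicate (adjusted p 0.0123 to 0.0307). The split was thus 1 higher and 2 lower, at a median of 0.04, where 15.7% of all tested genes rose and 13.8% fell. With centred arrays the splits were 4 and 1 in SS against C, 1 and 2 in ADMA against SS, and 5 and 0 in ADMA against C.

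**Figure D4:**
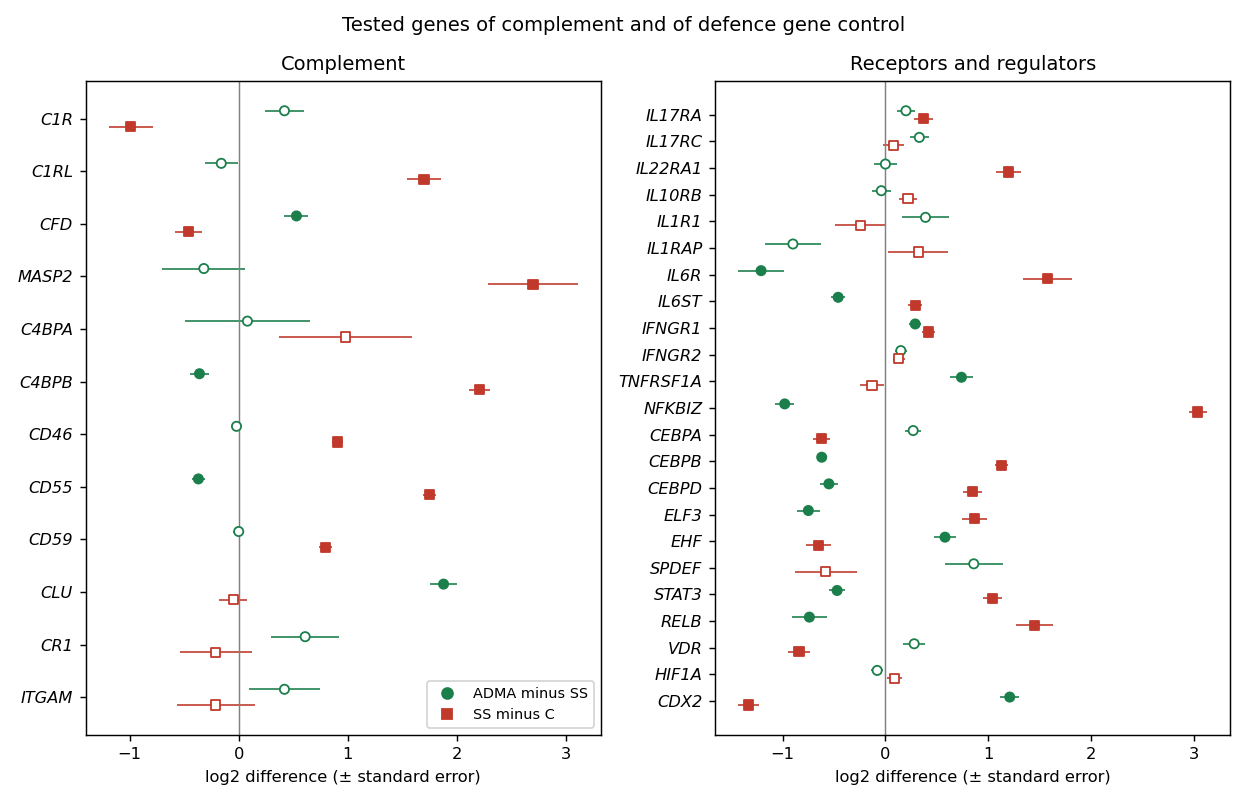
Log2 difference of group means (horizontal axis, bars ± SE from limma) of the tested complement genes (left) and of the tested receptors and regulators of epithelial defence genes (right), in ADMA minus SS (circles) and SS minus C (squares), filled where the gene was called. CD55, C4BPB and NFKBIZ lie well to the right for SS minus C and left of 0 for ADMA minus SS; MASP2 was under background on the C arrays.

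Receptors and regulators of epithelial defence genes were read beside LYZ and LCN2. Whether any of them acted on LYZ or LCN2 in these cells was not tested. NFKBIZ, the nuclear cofactor of NF-kB named above, averaged 11.43 ± 0.18 in ADMA cells (SD, n = 4), 12.41 ± 0.09 in SS cells (SD, n = 3) and 9.37 ± 0.08 in C cells (SD, n = 3), the order of groups seen for LYZ and LCN2. Its difference was 3.04 in SS against C (SE 0.09, limma adjusted p = 2.47e-12), -0.98 in ADMA against SS (SE 0.09) and 2.06 in ADMA against C (SE 0.09). The receptor chain IL6R rose by 1.58 in SS against C (SE 0.24) and fell by 1.21 in ADMA against SS (SE 0.22). RELB, a subunit of NF-kB, rose by 1.45 in SS against C (SE 0.18). CDX2, an intestinal transcription factor, fell by 1.33 in SS against C (SE 0.1) and rose by 1.21 in ADMA against SS (SE 0.09). Its difference in ADMA against C was -0.12 (SE 0.09), without a call. IL22RA1, a chain of the interleukin 22 receptor, rose by 1.2 both in SS against C (SE 0.12) and in ADMA against C (SE 0.11). In ADMA against SS it gave 0 (SE 0.11). Of 23 tested receptors and regulators 11 rose and 4 fell in SS against C (median 0.29, against 0.07 over all tested genes), 4 rose and 8 fell in ADMA against SS (median 0, against 0.03), and 11 rose and 2 fell in ADMA against C (median 0.28, against 0.07). By an unadjusted p under 0.05 in limma 12 rose and 4 fell, 10 and 9, and 11 and 3 in the same order. Over all tested genes 30.3% rose and 27.3% fell, 15.7% and 13.8%, and 26.6% and 23.2% in the same order. With centred arrays the split in ADMA against C turned to 2 higher and 9 lower, and the others were 8 and 6, and 3 and 8.

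Other antimicrobial proteins showed no single direction. Of 35 such genes with a probe set 9 were tested, of which 0 rose and 2 fell in SS against C (1 and 2 by an unadjusted p under 0.05 in limma). PLA2G2A fell by 2.46 (SE 0.14) and the ribonuclease gene ANG by 0.64 (SE 0.14). In ADMA against SS 4 rose and 0 fell (4 and 2 by an unadjusted p under 0.05), among them NOX1, an epithelial NADPH oxidase, by 2.17 (SE 0.35), PLA2G2A by 1.27 (SE 0.14) and LEAP2, a liver and gut peptide, by 0.58 (SE 0.11). NOX1 was above background on 4 of 4 ADMA arrays, 2 of 3 SS arrays and 2 of 3 C arrays. Its mean log2 signal was 8.22 in ADMA cells, 6.05 in SS cells and 6.1 in C cells. NOX1 thus passed the filter of 6.25, and entered these counts, only through the ADMA arrays where it was high. Both directions occurred in ADMA against C, 2 higher and 2 lower. With centred arrays the splits were 0 and 4 in SS against C, 3 and 1 in ADMA against SS, and 1 and 3 in ADMA against C. The medians were -0.19 in SS against C, 0.44 in ADMA against SS and 0.17 in ADMA against C. All tested genes gave 30.3% higher and 27.3% lower, 15.7% and 13.8%, and 26.6% and 23.2% in the order of these comparisons.

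The protease inhibitors related to SLPI in function also split. Of 9 tested genes 4 rose and 4 fell in SS against C, where 30.3% of all tested genes rose and 27.3% fell. In ADMA against SS 3 rose and 1 fell, beside 15.7% and 13.8%, and in ADMA against C 4 rose and 2 fell, beside 26.6% and 23.2%. By an unadjusted p under 0.05 in limma the splits were 4 and 4, 5 and 3, and 6 and 2 in the same order. With centred arrays the splits were 4 and 4, 2 and 2, and 2 and 3 in the same order. PI3, which encodes elafin, an elastase inhibitor of the same family as SLPI, averaged 10.35 ± 0.26 in ADMA cells (SD, n = 4), 9.23 ± 0.22 in SS cells (SD, n = 3) and 11.09 ± 0.07 in C cells (SD, n = 3). Like SLPI it was lowest in SS cells, with differences of -1.86 in SS against C (SE 0.14) and 1.12 in ADMA against SS (SE 0.13). SPINK1, a trypsin inhibitor, had the opposite signs, 2.23 in SS against C (SE 0.11) and -1.44 in ADMA against SS (SE 0.10), and SPINK4, a crypt secretory protein, rose by 0.94 in ADMA against SS (SE 0.08). SERPINB1, an inhibitor of neutrophil elastase, rose by 1.31 in SS against C (SE 0.06), and SERPINB5 by 0.93 in ADMA against C (SE 0.05).

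Microbial sensors and their adaptors had 13 of 26 genes tested, and in each group 15 of the 26 were above background on all its arrays. In SS against C 4 rose and 2 fell, among them IRAK2, a kinase of the Toll-like receptor pathway, by 1.61 (SE 0.16) and the receptor gene TLR2, which fell by 1.32 (SE 0.28). In ADMA against SS 1 rose and 2 fell, with IRAK2 lower by a log2 difference of -0.73 (SE 0.15), and in ADMA against C 5 rose and 0 fell (6 and 1 by an unadjusted p under 0.05 in limma). Both counts of rises over C include TLR6. Its mean log2 signal was 5.48 in C cells, 7.1 in SS cells and 6.71 in ADMA cells. On C arrays it was above background on 1 of 3. TLR6 thus passed the filter of 6.25 only through the serum-free groups, where it was high, which limits its tests. Its call in ADMA against C was lost without ADMA replicate 1 or 2, SS replicate 3, or C replicate 2 or 3. In SS against C its call was lost without SS replicate 2. With centred arrays the splits turned to 2 higher and 4 lower in SS against C, 0 and 2 in ADMA against SS, and 1 and 6 in ADMA against C. The medians were 0.16, 0 and 0.27 in the order of these comparisons. Shares over all tested genes were 30.3% higher and 27.3% lower, 15.7% and 13.8%, and 26.6% and 23.2% in that order. Of 7 genes listed for immunoglobulin transport and class switch, 2 were tested, TSLP and TFRC. In SS against C 1 rose and in ADMA against SS 1 fell. In each case it was TSLP, an epithelial cytokine, at 1.26 (SE 0.27) and -0.92 (SE 0.25). The call of TSLP in SS against C was lost with quantile normalization (limma adjusted p = 0.0129) and with centred arrays (0.0153). The call of TSLP in ADMA against SS was lost without ADMA replicate 2, 3 or 4, any single SS replicate, or C replicate 1 or 2 (adjusted p 0.0102 to 0.0355). Of 11 acute phase genes with a probe set 0 passed the filter.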

How the data were processed

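Signals of 10 arrays were used as the authors deposited them: intensities per probe set on a linear scale from MAS 5.0, scaled per array. The genome build behind the probe annotation is not given in the sources used here. The arrays hold 54675 probe sets, 62 of which are controls. The platform annotation pairs 41091 with 1 symbol, from which genes were named, 1801 with several and 11721 with none. The deposited intensities were taken to log2 here without a pseudocount or further normalization between arrays. The 10 arrays entered a single limma fit (version 3.58.1, R 4.3.3; lmFit, then eBayes with trend), and p-values were adjusted after Benjamini and Hochberg over the 12344 genes that reached the median signal. Calls required 0.01 for the adjusted p and a 1.2-fold difference, as the study's methods set for SAM. The fit was tested on simulated data. Array data give no read depth, and the 3 or 4 arrays per group limit the precision.

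The members, the 223 list genes (201 with a probe set) and the tests were chosen with earlier results of these data known, and no set test was run. Named genes are the 10 members and, per list and comparison, the 3 called genes with the largest absolute difference, or the brightest tested gene where none was called; CD59, and the values of named genes in further comparisons, were added after they were seen, and some genes the rule names are not printed. "At least" folds set the brighter group's mean against, on each dim array, the higher of the background level and the gene's own signal. In all 20 alternatives were run: centring or quantile normalization, 2 other filters, averaged probe sets, a pseudocount of 16, signals under background set to it, no trend, only the arrays of the groups compared, a replicate block, and leaving out each of the 10 arrays. Promoters are from RefSeq. Within groups no 2 arrays held identical values. Python 3.11.15 with matplotlib 3.10.9 drew the figures. The study's PCR and metabolite data are not analysed here.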

Additional observations from a re-analysis of the deposited data

How the results depend on the processing

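Of 594 differences of the 10 genes under 20 alternatives, 585 kept their call or lack of one or, for the 4 untested genes, moved by less than the spread between replicates, and leaving out a single array changed 0 of them in this sense. Of 2379 differences of list genes 2267 kept theirs, and 1539 of 1680 list counts stayed within 1.5 times. Differences that were not called could change sign, as that of DMBT1 in SS against C did with quantile normalization (-0.23). Leaving out an array gave 3456 to 3729 genes higher and 3104 to 3376 lower in SS against C, 1545 to 1918 and 1294 to 1703 in ADMA against SS, and 3059 to 3272 and 2604 to 2876 in ADMA against C. The scaling mattered most. Centring each array on its median shifted SS against C by -0.39, ADMA against SS by -0.12 and ADMA against C by -0.51 on the log2 scale, and gave 2013 genes higher and 5184 lower in SS against C (3738 and 3372 as deposited), 901 higher in ADMA against SS (1935 as deposited), and 1209 higher and 6101 lower in ADMA against C (3284 and 2859 as deposited). Among the 10 genes it gave 2 lower in SS against C (REG4 at -0.35 beside SLPI), and 2 higher (LYZ and LCN2) and 1 lower (DMBT1) in ADMA against C. Among differences of the 10 genes and the named list genes that were called as deposited or after centring, some signs turned with centring. They were those of REG4 and AGR2 (-0.12) in SS against C, and of SLPI (-0.13), CFD (-0.43), TFRC (-0.38), SIGIRR (-0.39) and AGR2 (-0.16) in ADMA against C. PIGR in ADMA against C (-0.31) and DMBT1 in SS against C (-0.26) also turned, without a call either way. Centring also ended the calls of LEAP2 and CFD in ADMA against SS and, as quantile normalization did, of TSLP and MMP7 in SS against C. LYZ and LCN2 kept their calls in all comparisons, at 2.66 and 2.04 in SS against C. Quantile normalization kept the calls of the 6 tested genes and brought REG4 in ADMA against SS to 0.32. Averaging a gene's probe sets left 10984 genes tested and 942 lower in ADMA against SS (1704 with the brightest probe set), and REG4 then rose in SS against C (0.26, adjusted p = 0.00296). With signals under background set to it, the calls of MASP2 stood at adjusted p of 0.000548 and 0.00146. The labels number replicates alike in each group, but deviations of same-numbered arrays correlated at -0.07 to 0.10 and 3 of 9 arrays correlated best with their own number. Pairing by number was thus not seen in the values, which cannot show whether same-numbered cultures were set up together. With a replicate block 3718 genes were higher and 3353 lower in SS against C, 1642 and 1453 in ADMA against SS, and 3161 and 2786 in ADMA against C, and the counts among the 10 genes were those without it; C4BPB, CFD and TSLP lost their calls in ADMA against SS. Signals near background have no settled order, which limits REG1A, DEFB1, C3 and CFB.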
